A study of Mus musculus with 10 samples.

Results

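The Notch pathway was followed through 10 genes, the ligands Dll1, Jag1 and Jag2, the receptors Notch1, Notch2 and Notch3, the nuclear factor Rbpj and the targets Nrarp, Hes1 and Hes5. They were chosen by gene symbol, all 10 are in the deposited table of 18464 genes, and all 10 passed the filter on low counts. RNA was sequenced from ventral midbrain, named SNpc/VTA in the labels, of naïve Aldh1l1-NuTRAP mice, a strain in which cells that use the Aldh1l1 promoter, mostly astrocytes in brain, carry a ribosome tag. An astrocyte fraction (the RNA bound to the tagged ribosomes, n = 5 libraries) is set against input RNA of all cell types (n = 5), and both groups carry the same transgene. The titles number the libraries 88, 92, 976, 981 and 982, and each number has 1 library in each group. The sources used here give neither age nor whether a number is a single animal, so p-values measure the spread between these libraries, which may be technical.

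Notch signalling runs between touching cells. A membrane ligand on the sending cell binds a Notch receptor on its neighbour, proteases cut the receptor, and its inner part joins the DNA-binding protein RBPJ in the nucleus and switches on repressor genes such as Hes1 and Hes5. In the brain the pathway is known for keeping neural stem cells undifferentiated and for guiding glial fate, and mature astrocytes keep several of its genes on. The ratio of fraction to input therefore addresses on which side, astrocytes or other cells, the messages of senders and of receivers lie. It does so with limits. The input includes astrocytes, so a gene that is lower in the fraction can still be expressed in them. The fraction holds ribosome-bound RNA only, so the ratio can also reflect how far a message is bound to ribosomes. Cell type and ribosome binding cannot be told apart here.

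Libraries held between 3845554 (astrocyte fraction 92) and 30878894 (input 92) expected counts, with 24479136 to 26924406 in the other 4 astrocyte fraction libraries. Values are CPM, counts scaled for library size by the TMM method, and a positive log2 fold change means a higher level in the astrocyte fraction. A gene was called at an edgeR quasi-likelihood adjusted p (Benjamini-Hochberg over 17672 tested genes) under 0.05. Of 12 astrocyte markers all were higher in the astrocyte fraction, at log2 fold changes of 2.65 to 3.20 (median 3.05). All 10 neuronal markers (median -2.33), all 9 oligodendrocyte markers (-3.69) and all 8 microglial markers (-4.23) were lower. Of 7 oligodendrocyte precursor markers (median -3.17) 5 were lower and 2 higher, Olig1 (1.58) and Olig2 (0.86). The 7 summed to 795 to 1131 CPM in the astrocyte fraction and 485 to 546 CPM in the input. Olig1 alone averaged 734 CPM in the astrocyte fraction and 245 CPM in the input. Choroid plexus and ependymal markers summed to 76.0 to 12357 CPM in the astrocyte fraction and 21.0 to 3246 CPM in the input, with the highest sums in number 976.

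The receptors, the targets and the ligand Jag1 were higher in the astrocyte fraction, whereas the ligands Dll1 and Jag2 were lower. Of the 10 genes, 8 were called higher and 2 lower, against 33.1% and 37.5% of all tested genes. With 70.6% of tested genes called in either direction, a call alone is common in this comparison. The median log2 fold change was 1.89 over the 10 genes and -0.06 over all tested genes. Libraries of the 2 groups did not overlap for 7 of the genes that rose and for both that fell, against 27.2% of all tested genes on the higher side and 31.1% on the lower side.

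**Figure D1:**
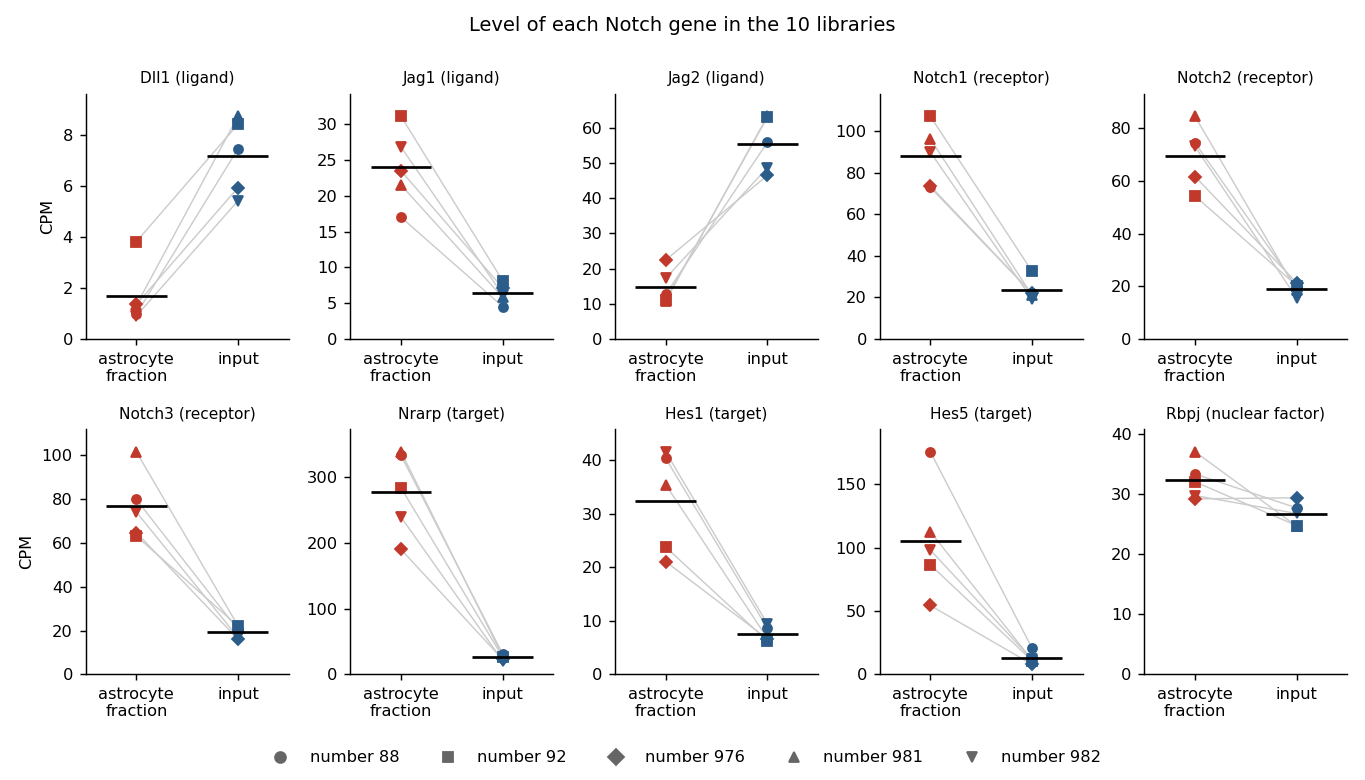
Level of each of the 10 genes (CPM, linear axis from 0) in the 5 astrocyte fraction libraries and the 5 inputs. Symbols give the title number, grey lines join libraries with the same number, and black bars are group means. The groups are apart in every panel except that of Rbpj, and Dll1 and Jag2 are the panels in which the astrocyte fraction lies below the input.

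The ligands split. Jag1 (ENSMUSG00000027276, mm10 chromosome 2, 137081456 to 137116644, minus strand) encodes Jagged1, a ligand that also binds receptors of blood vessels. In the order 88, 92, 976, 981 and 982, which is kept below, Jag1 was at 17.0, 31.1, 23.5, 21.5 and 26.8 CPM in the astrocyte fraction, against 4.54, 8.15, 7.15, 5.82 and 6.20 CPM in the input. Every astrocyte fraction library was above every input. The log2 fold change was 1.88 ± 0.20 (SE, n = 5 each), a 3.69-fold higher level (edgeR adjusted p = 1.08e-06).

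Jag2 (ENSMUSG00000002799, chromosome 12, 112907819 to 112929776, minus strand) encodes the related ligand Jagged2. It was at 12.7, 11.2, 22.4, 10.8 and 17.2 CPM in the astrocyte fraction, against 55.8, 63.0, 46.4, 63.2 and 48.7 CPM in the input. All 5 astrocyte fraction libraries lay below the lowest input, and 976 and 982 were the highest of the astrocyte fraction. Jag2 fell by 1.87 ± 0.22 on the log2 scale, to 27.4% of the input level (edgeR adjusted p = 2.25e-06). It fell by 2.27 without the numbers 976 and 982, which also carried the highest sums of choroid plexus and ependymal markers. The part of those markers in the difference was not tested.

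Dll1 (ENSMUSG00000014773, chromosome 17, 15367354 to 15376872, minus strand) encodes Delta-like 1, the ligand that nascent neurons show to their neighbours during development. It was the least abundant of the 10 genes in the astrocyte fraction, at 0.979, 3.81, 1.36, 1.33 and 0.904 CPM, against 7.46, 8.42, 5.93, 8.73 and 5.42 CPM in the input. The groups did not overlap, and the shallow library 92 was the highest of the astrocyte fraction, with 12.5 expected counts against 19.6 to 34.0 in the other 4. Dll1 fell by 2.28 ± 0.38 on the log2 scale, to 20.7% of the input level (edgeR adjusted p = 4.09e-05), and by 2.57 without the astrocyte fraction library 92. The 10 neuronal markers, with a median of -2.33 on the same scale, summed to 1525 to 1995 CPM in the astrocyte fraction and 6450 to 7556 CPM in the input, and their part in the values of Dll1 and Jag2 was not tested. Dll1 shares 20.5% of its exon bases with A930024N18Rik on the opposite strand, which was lower too (log2 fold change -2.04, edgeR adjusted p = 0.000270). No source used here gives the strand setting of the counting, so the reads of this pair cannot be told apart.

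Within a library, the make-up of the ligand messages differed between the groups. Per kilobase of exon, Jag1 was 61.9 ± 6.02% of the sum of the 3 ligands in the astrocyte fraction and 10.3 ± 2.42% in the input (SD, n = 5 each). Jag2 was 32.3 ± 8.45% in the astrocyte fraction and 74.0 ± 1.72% in the input, and Dll1 was 5.81 ± 3.34% and 15.7 ± 1.33%, in the same order. The test of this shift was made on log2 ratios of 2 genes within a library, which cancel most of the scaling between libraries. Of 7 such ratios compared, Jag2 to Jag1 averaged -0.72 ± 0.54 in the astrocyte fraction and 3.12 ± 0.38 in the input (SD). The difference was -3.84 ± 0.29 (SE, exact two-sided permutation test, p = 0.00794, adjusted over 7 ratios 0.0185). The ratio of Dll1 to Jag1 differed by -4.13 ± 0.34, with the same exact p, which is the smallest that 5 against 5 libraries allow. In both ratios every astrocyte fraction library was below every input. That order, and with it the exact p, was fixed by the single genes, since Dll1 and Jag2 fell and Jag1 rose without overlap. These ratios give the size of the shift and are no further evidence for it. These permutations do not keep the pairing by title number. Exact sign flips within the 5 numbers, which keep it, gave p = 0.0625 (adjusted 0.109) for both. They gave the same for Dll1 to Notch1 and Hes5 to Hes1, which follow below. That p is the smallest the flips allow, so they could not call any difference.

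Of 5 other ligand genes in the pathway list, 0 were higher, 3 lower and 2 not called, where 33.1% of all tested genes were higher and 37.5% lower. Dlk1, a Delta-like protein without the domain that activates Notch, was at 38.7 ± 15.7 CPM in the astrocyte fraction and 220.3 ± 102 CPM in the input, a log2 fold change of -2.50 (edgeR adjusted p = 0.000263). Its relative Dlk2 (-2.49) and Dll3 (-2.04), a Delta-like protein known to inhibit signalling from within the cell, were lower as well. Dll3 was low, at 0.629 ± 0.247 CPM in the astrocyte fraction, with 2 expected counts in library 92, and 2.88 ± 0.630 CPM in the input. Dll4, the Delta ligand of sprouting vessels, had 1.42 ± 0.739 CPM in the astrocyte fraction and 1.44 ± 0.375 CPM in the input (log2 fold change -0.13, edgeR adjusted p = 0.741). Dner, a neuronal membrane protein described as a non-canonical Notch ligand, was at 199 ± 26.9 CPM in the astrocyte fraction and 233 ± 27.5 CPM in the input (log2 fold change -0.23, edgeR adjusted p = 0.0768). With the title number as a block, Dner was called lower (log2 fold change -0.23, edgeR adjusted p = 0.0127). It was also called lower with total count scaling (-0.52), when a mean of 5 CPM was required (-0.31) and without the input 976 (-0.28), but had -0.08 without the astrocyte fraction library 976.

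The 3 receptors rose by nearly the same factor, between 3.65-fold and 3.93-fold. Notch1 (ENSMUSG00000026923, chromosome 2, 26457903 to 26516663, minus strand) was at 72.9, 107, 73.6, 96.3 and 89.9 CPM in the astrocyte fraction, against 22.0, 32.6, 22.0, 21.1 and 19.2 CPM in the input. The lowest astrocyte fraction library exceeded the highest input, and number 92 was the highest in both groups. Its log2 fold change was 1.90 ± 0.17 (edgeR adjusted p = 1.99e-07).

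Notch2 (ENSMUSG00000027878, chromosome 3, 98013527 to 98150361, plus strand) was at 74.4, 54.3, 61.6, 84.5 and 73.1 CPM in the astrocyte fraction, against 19.7, 20.3, 21.4, 18.5 and 15.6 CPM in the input. The inputs spread little, with a coefficient of variation of 11.6%, and the groups were apart. The log2 fold change was 1.87 ± 0.14 (edgeR adjusted p = 2.68e-08). Notch3 (ENSMUSG00000038146, chromosome 17, 32120820 to 32166880, minus strand) encodes the receptor best known from pericytes and vascular smooth muscle. It was at 79.8, 63.1, 64.7, 101.5 and 74.0 CPM in the astrocyte fraction, against 20.3, 22.0, 16.1, 22.2 and 16.9 CPM in the input. All 5 astrocyte fraction libraries exceeded the inputs, with a log2 fold change of 1.98 ± 0.16 (edgeR adjusted p = 5.61e-08). Genes on the opposite strand share 9.76% of the exon bases of Notch1 and 6.03% of those of Notch3, and Notch2 shares 5.02% with a gene model on its own strand.

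Markers of vessel cells did not move with the receptors as lists. Of 9 mural cell markers, 8 fell and 1 rose (median -1.57 on the log2 scale), with sums of 70.0 to 123 CPM in the astrocyte fraction and 144 to 188 CPM in the input. The marker that was higher was Pdgfrb, the PDGF receptor gene of pericytes (log2 fold change 1.35), while the pericyte gene Rgs5 had -1.57. Among 10 endothelial markers, 5 fell and 5 missed the threshold (median -0.42), with sums of 69.2 to 116 CPM in the astrocyte fraction and 123 to 152 CPM in the input, and none of either list was at 0 in all astrocyte fraction libraries. The part of vessel cells in the receptor values was not tested. In bulk RNA, fewer cells of a type and less RNA per cell cannot be told apart. Notch4, the receptor typical of endothelium, rose by 0.77 ± 0.15 on the log2 scale (0.48 with total count scaling), to 10.6 ± 1.78 CPM in the astrocyte fraction, against 6.25 ± 0.989 CPM in the input (edgeR adjusted p = 0.000761).

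No difference in the balance between receptors was found. The log2 ratio of Notch1 to Notch2 was 0.34 ± 0.38 in the astrocyte fraction and 0.27 ± 0.25 in the input (SD, n = 5 each), a difference of 0.06 ± 0.20 (SE, exact permutation test, p = 0.746). That of Notch3 to Notch2 differed by 0.11 ± 0.12 (SE, exact p = 0.516). Per kilobase of exon, Notch3 was 42.6 ± 3.15% of the 3 receptors in the astrocyte fraction and 41.4 ± 3.85% in the input. That lead rests on the length used, since per kilobase of longest coding sequence, an alternative added after seeing the data, Notch1 was at 11.6, Notch3 at 11.0 and Notch2 at 9.38 CPM in the astrocyte fraction, against 3.08, 2.80 and 2.57 CPM in the input. These tests do not show that the ratios are equal, since 5 libraries a group leave the errors given.

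Set against the receptor gene Notch1, the ligand genes Dll1 and Jag1 parted. No ratio of Jag2 to a receptor was among the 7. The log2 ratio of Dll1 to Notch1 was -5.83 ± 0.66 in the astrocyte fraction and -1.69 ± 0.28 in the input (SD), a difference of -4.15 ± 0.32 (SE, exact permutation test, p = 0.00794, adjusted 0.0185). That p was again fixed by the single genes, since Dll1 fell and Notch1 rose without overlap. In contrast, Jag1 to Notch1 averaged -1.88 ± 0.23 in the astrocyte fraction and -1.86 ± 0.27 in the input, a difference of -0.02 ± 0.16 (exact p = 0.889). Summed per kilobase of exon, the 3 receptors were at 22.1 ± 3.12 in the astrocyte fraction and 5.82 ± 0.731 in the input. The sum of the 3 ligands was 6.65 ± 1.29 in the astrocyte fraction and 10.8 ± 1.49 in the input.

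**Figure D2:**
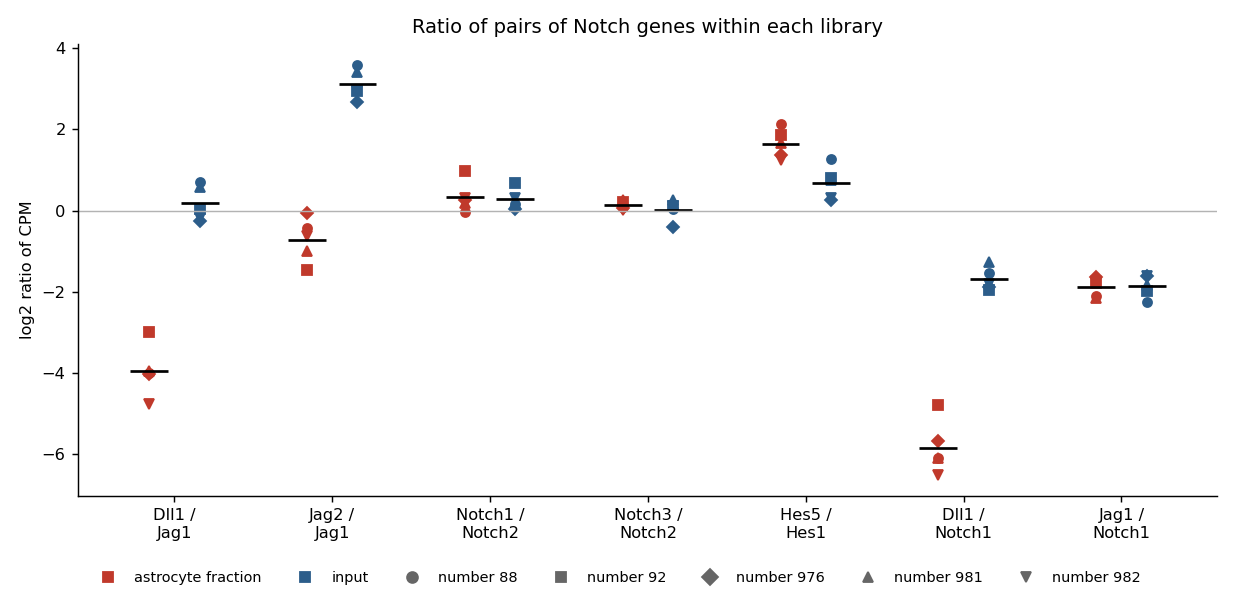
Log2 ratio of CPM between 2 Notch genes within each library, for 7 pairs. Red symbols are astrocyte fraction libraries, blue symbols are inputs, shapes give the title number and black bars are group means. The ratios of Dll1 and Jag2 to Jag1 and of Dll1 to Notch1 are separate between the groups, and those among the receptors and of Jag1 to Notch1 overlap.

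Among the 10 genes the targets had the highest fold changes, although without the input 92 Hes1 (2.04) lay just below Notch1 (2.05). Nrarp (ENSMUSG00000078202, chromosome 2, 25180758 to 25183339, plus strand) encodes a small ankyrin repeat protein that binds the Notch complex and dampens it, a feedback inhibitor. It was at 333, 283, 190, 338 and 239 CPM in the astrocyte fraction, against 31.1, 26.4, 23.0, 27.7 and 20.5 CPM in the input. The log2 fold change was 3.42 ± 0.19 (edgeR adjusted p = 3.28e-09), which lies above that of each of the 12 astrocyte markers (at most 3.20). Nrarp shares 79.4% of its exon bases with Gm38287 on the opposite strand, which is not in the table analysed, so reads of both cannot be told apart.

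Hes5 (ENSMUSG00000048001, chromosome 4, 154960923 to 154962371, plus strand) encodes a repressor that holds neural progenitors back from differentiation. It was at 176, 86.6, 54.4, 113 and 98.2 CPM in the astrocyte fraction, against 20.9, 11.0, 7.96, 11.4 and 11.8 CPM in the input. Number 88 was the highest and 976 the lowest in both groups, and the groups were apart. The log2 fold change was 3.06 ± 0.35 (edgeR adjusted p = 1.83e-05). Hes5 shares 31.8% of its exon bases with Gm20421 on the opposite strand, which reached 0.325 ± 0.271 CPM in the astrocyte fraction and 0.732 ± 0.462 CPM in the input.

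Hes1 (ENSMUSG00000022528, chromosome 16, 30064384 to 30067796, plus strand) encodes a repressor of the same family that many signals besides Notch can induce. It was at 40.3, 23.8, 21.1, 35.4 and 41.6 CPM in the astrocyte fraction, against 8.64, 6.26, 6.63, 6.78 and 9.45 CPM in the input. All astrocyte fraction libraries exceeded all inputs, with a log2 fold change of 2.10 ± 0.23 (edgeR adjusted p = 1.13e-06). The log2 ratio of Hes5 to Hes1 was 1.65 ± 0.36 in the astrocyte fraction and 0.68 ± 0.41 in the input (SD), a difference of 0.97 ± 0.24 (SE, exact permutation test, p = 0.0159, adjusted 0.0278). Libraries of the 2 groups overlapped in that ratio, and the adjusted exact p was 0.0556 when any of 8 libraries was left out, all but the input 88 and the astrocyte fraction library 982.

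The promoters of Hes5 and Nrarp, the targets with the highest fold changes, are shown because RBPJ is known to bind DNA of the core GTGGGAA. The windows run from 250 bases before to 50 bases after the start of the gene, on the plus strand, in RefSeq's GRCm38.p6 (chr4:154960673-154960972 for Hes5 and chr2:25180508-25180807 for Nrarp). Capitals mark GTGGGAA or its reverse complement TTCCCAC.
Hes5: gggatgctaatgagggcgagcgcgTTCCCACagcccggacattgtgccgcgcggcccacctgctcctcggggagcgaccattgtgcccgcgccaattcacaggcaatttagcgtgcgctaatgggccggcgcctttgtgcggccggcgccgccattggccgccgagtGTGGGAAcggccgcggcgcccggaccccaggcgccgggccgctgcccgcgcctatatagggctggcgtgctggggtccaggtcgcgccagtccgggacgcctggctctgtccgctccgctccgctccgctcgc
Nrarp: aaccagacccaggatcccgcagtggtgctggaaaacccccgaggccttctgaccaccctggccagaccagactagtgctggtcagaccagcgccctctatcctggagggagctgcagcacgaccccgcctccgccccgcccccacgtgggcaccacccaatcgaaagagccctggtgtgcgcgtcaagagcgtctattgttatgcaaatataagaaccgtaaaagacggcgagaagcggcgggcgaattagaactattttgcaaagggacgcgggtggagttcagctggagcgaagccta
The Hes5 window holds TTCCCAC from position -226 and GTGGGAA from position -83, counted from the start base as 0, on opposite strands and without overlap. Of 32851 RefSeq promoter windows, 6.38% hold the letters at least once and 84 (0.256%) hold them 2 times or more. Of the 10 genes, 9 matched a window, all but Hes1, and Rbpj and Dll1 each matched windows at different positions. Among all these windows the letters were found in that of Hes5 only. The windows of Rbpj (from 53590096 and from 53590236) and of Notch1 (26503773 to 26504072) lie inside the gene bounds given in this text, away from the gene start. A match is a description of the letters, and a window without it says nothing about binding elsewhere.

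The Hey genes, which encode relatives of the Hes repressors and are Notch targets in vessels and heart, followed the same direction. Heyl was at 151, 114, 90.1, 146 and 113 CPM in the astrocyte fraction, against 17.8, 12.4, 11.8, 11.8 and 9.24 CPM in the input, with no overlap. Its log2 fold change was 3.27 ± 0.20 (edgeR adjusted p = 1.22e-08). Hey2 rose by 2.76 ± 0.26 and Hey1 by 1.91 ± 0.07 on the log2 scale. Hes7, the oscillating repressor of somite formation, was at 1.34 ± 0.526 CPM in the astrocyte fraction and 0.865 ± 0.288 CPM in the input (log2 fold change 0.64, edgeR adjusted p = 0.0891), and it was called without the astrocyte fraction library 976 (log2 fold change 0.90, adjusted p = 0.0200). Of these 4 other targets, 3 were higher, 0 lower and 1 not called, where 33.1% of all tested genes were higher and 37.5% lower.

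Rbpj (ENSMUSG00000039191, chromosome 5, 53466152 to 53657362, plus strand), the DNA-binding partner of all Notch receptors, differed least. It was at 33.3, 32.0, 29.1, 37.0 and 29.7 CPM in the astrocyte fraction, against 27.7, 24.7, 29.3, 24.6 and 26.7 CPM in the input. The groups overlapped, since the astrocyte fraction exceeded its input in 4 of 5 numbers and the input 976 exceeded its partner. Its log2 fold change of 0.28 ± 0.08 was called with TMM scaling (edgeR adjusted p = 0.0180) but was -0.01 under total count scaling (adjusted p = 0.915), a scaling that moved the median of all genes to -0.34. The call was also missed with a filter at a mean of 5 CPM (log2 fold change 0.19, adjusted p = 0.0800). Without the numbers 976 and 982 the log2 fold change was 0.52 (edgeR adjusted p = 0.00321).

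**Figure D3:**
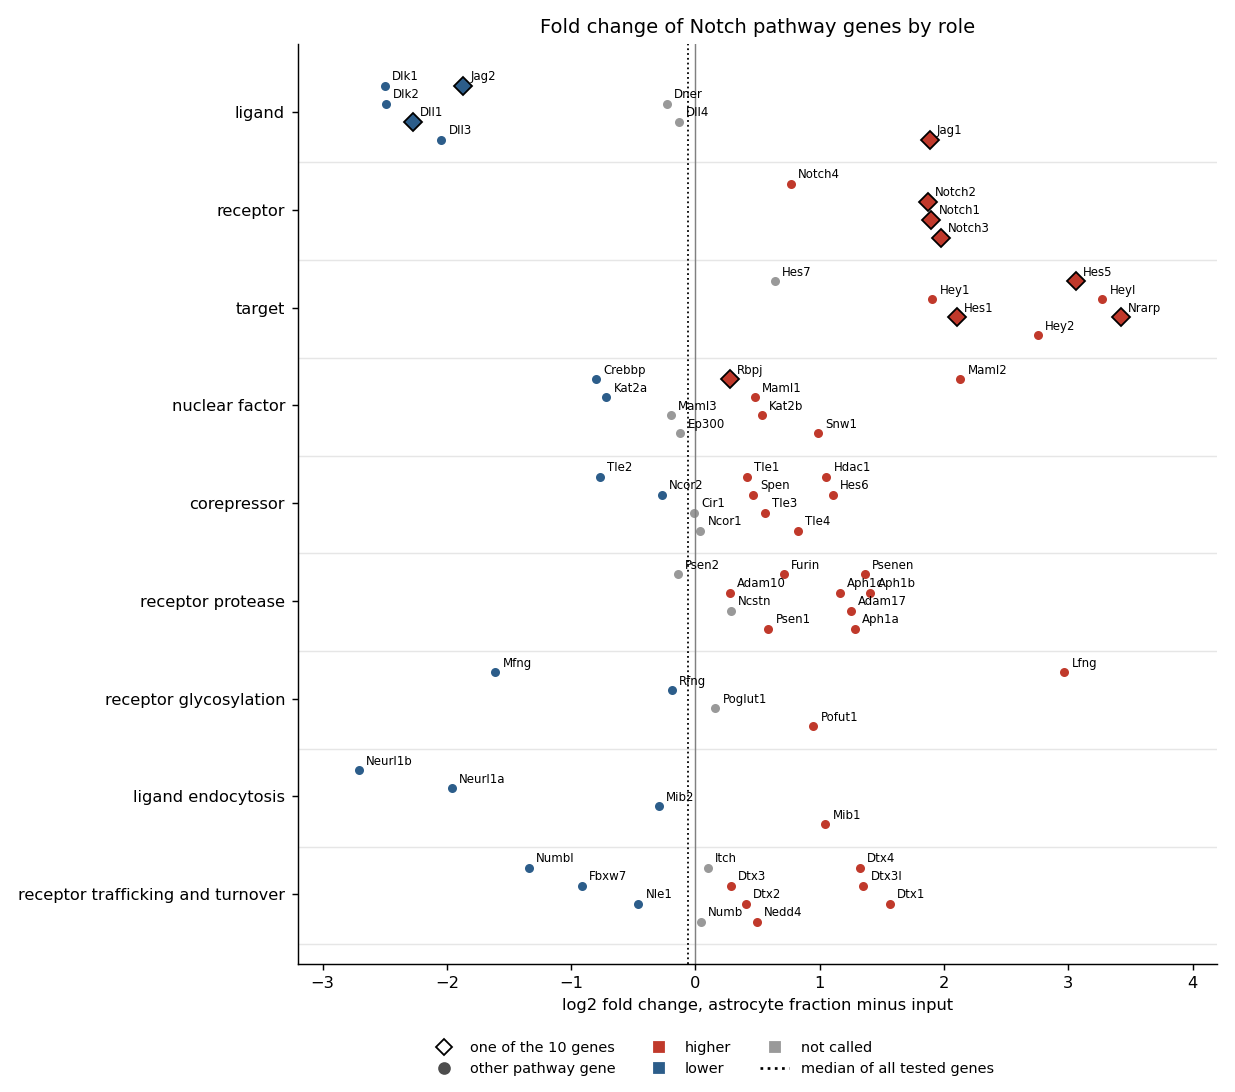
Log2 fold change (astrocyte fraction minus input) of the 10 Notch genes (diamonds) and 58 other genes of the pathway (circles), in rows by role. Red genes were called higher, blue genes lower and grey genes not called, and the dotted line is the median of all 17672 tested genes. Receptors and targets lie right of the median. Of the ligands, Jag1 lies right of it and all others lie left of it.

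Beyond these genes, the pathway list held 59 others, of which 58 are in the table and were tested. Of the 58, 31 rose, 15 fell and 12 missed the threshold, and their median log2 fold change was 0.41 (-0.06 for all tested genes). Of all tested genes 33.1% rose and 37.5% fell, which is also the background of the counts by role that follow, each over few genes. Total count scaling gave 24 higher and 21 lower of the 58, and 4293 higher and 8317 lower of the 17672. Of 10 genes of the machinery that cuts receptors, 8 were higher (33.1% of all tested genes) and 0 lower (37.5%). The 8 included Aph1b (1.41 ± 0.05), a subunit of the gamma-secretase that frees the inner part of the receptor, its homologue Aph1a (1.28 ± 0.07), and Adam17 (1.25 ± 0.07), a protease that sheds outer domains of membrane proteins. The smallest rise of the 8 was that of the protease gene Adam10 (0.28 ± 0.09, edgeR adjusted p = 0.0151), whose libraries overlapped between the groups. Psen2 and Ncstn, further gamma-secretase subunits, were not called (-0.14 and 0.28).

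The Fringe genes, whose enzymes add sugars to the receptors and shift their preference between Delta and Jagged ligands, went separate ways. Lfng was at 346, 221, 247, 310 and 302 CPM in the astrocyte fraction, against 45.2, 32.9, 34.8, 32.5 and 36.8 CPM in the input. Its groups were far apart, with a log2 fold change of 2.97 ± 0.15 (edgeR adjusted p = 9.12e-10). Mfng was low and fell to 0.764 ± 0.365 CPM in the astrocyte fraction, against 2.69 ± 0.938 CPM in the input (log2 fold change -1.61), and Rfng fell by 0.19. The fucosyltransferase gene Pofut1, which adds the sugar that Fringe enzymes extend, rose by 0.95 ± 0.07.

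Among 4 genes of ubiquitin ligases that act on ligands in the sending cell, 1 was higher and 3 lower, against 33.1% and 37.5% of all tested genes. Mib1, needed in the sending cell for ligand endocytosis, was at 223 ± 21.8 CPM in the astrocyte fraction and 108 ± 8.51 CPM in the input (log2 fold change 1.05 ± 0.08, edgeR adjusted p = 1.51e-07). Neurl1b was at 3.98 ± 1.28 CPM in the astrocyte fraction and 27.7 ± 5.20 CPM in the input, a log2 fold change of -2.71 ± 0.24. Its homologue Neurl1a had -1.96 ± 0.17, and Mib2 had -0.29 ± 0.07.

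Of 8 other nuclear factors, 4 were higher, 2 lower and 2 not called, so that the share called was near the 70.6% of all tested genes. The co-activator Maml2, which docks on the complex of Notch and RBPJ, rose by 2.13 ± 0.10 (edgeR adjusted p = 1.65e-09), and its homologue Maml3 was not called (-0.20). Snw1 (0.99), an RBPJ partner with 44.2% of its exon bases also in the opposite-strand gene Slirp, and the acetyltransferase gene Kat2b (0.53) were higher, whereas the acetyltransferase gene Crebbp (-0.80) was lower. The Kat2b call was missed when scaled to total counts (log2 fold change 0.25, adjusted p = 0.117). Among 10 corepressor genes, 6 were higher and 2 lower, again near the 70.6% called among all tested genes, with Hes6 (1.11), which counteracts Hes1, Hdac1 (1.05) and Tle4 (0.82) against Tle2 (-0.77).

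Genes of receptor trafficking and turnover counted 6 higher, 3 lower and 2 not called among 11, also near that 70.6%. The Deltex ubiquitin ligase gene Dtx1, itself described as a Notch target in lymphocytes, was at 325 ± 55.5 CPM in the astrocyte fraction and 110.1 ± 5.09 CPM in the input (log2 fold change 1.56 ± 0.11). Dtx3l (1.35) and Dtx4 (1.32) were higher too. Numbl, a homologue of the Notch inhibitor Numb, fell by 1.34 ± 0.12, while Numb itself was not called (0.05).

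Levels of different genes were compared per kilobase of exon. In the astrocyte fraction the targets led, with Nrarp at 107 ± 24.5, Hes5 at 77.4 ± 32.8 and Hes1 at 15.9 ± 4.65 CPM per kilobase (SD, n = 5). Notch3 (9.47 ± 1.92), Notch2 (6.45 ± 1.09) and Notch1 (6.18 ± 1.04) followed, then Jag1 (4.12 ± 0.915), Rbpj (2.53 ± 0.247), Jag2 (2.13 ± 0.709) and Dll1 (0.397 ± 0.287). Library ranges of neighbours in this order overlapped except between Hes5 and Hes1, Jag1 and Rbpj, and Jag2 and Dll1.

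In the input the order began with Nrarp (9.97 ± 1.60), Hes5 (9.25 ± 3.57) and Jag2 (7.96 ± 1.12), whose ranges overlapped. Hes1 (3.71 ± 0.690) came next and was apart from both of its neighbours. Notch3 (2.41 ± 0.353), Rbpj (2.09 ± 0.157), Notch2 (1.77 ± 0.206), Dll1 (1.70 ± 0.349), Notch1 (1.64 ± 0.371) and Jag1 (1.09 ± 0.234) each overlapped with the next. The order depends on the length used. Divided by the longest coding length, Rbpj moved from place 8 to place 4 in the astrocyte fraction (20.4 CPM per kilobase) and from place 6 to place 3 in the input (16.9). With that length the receptors in the astrocyte fraction were ordered Notch1, Notch3 and Notch2 (places 5, 6 and 7) and Jag1 moved to place 8. In the input Jag2 and Hes1 moved to places 4 and 5, and Dll1, Notch1, Notch3 and Notch2 took places 6 to 9.

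**Figure D4:**
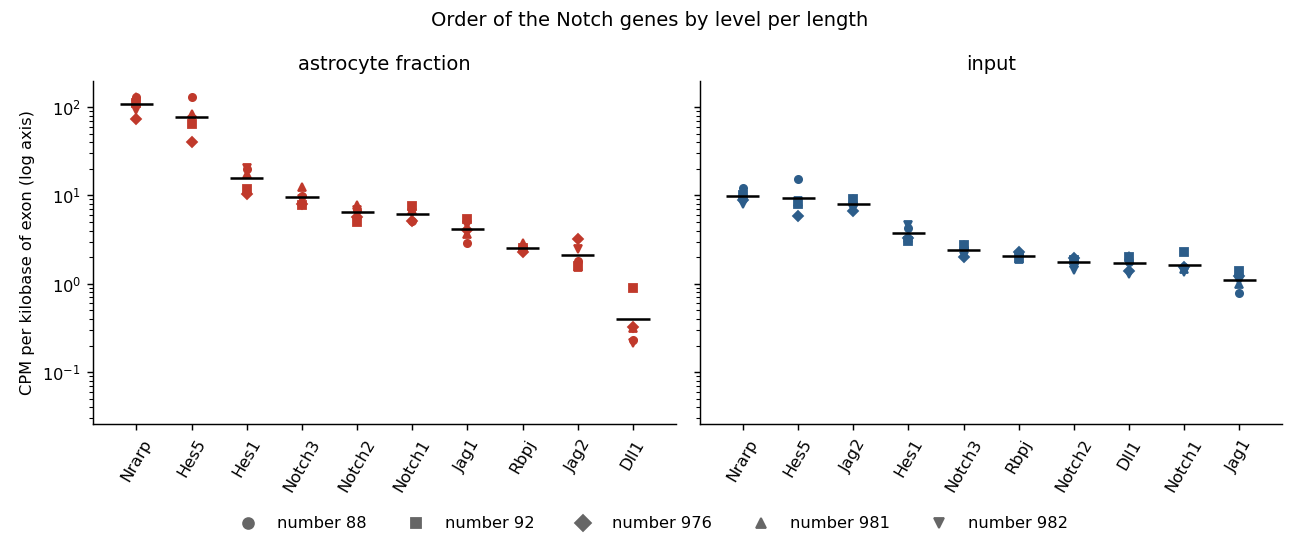
CPM per kilobase of exon (log axis) of the 10 genes in the astrocyte fraction and in the input, each ordered from high to low. Points are libraries, shapes give the title number and black bars are group means. Jag2 holds place 9 in the astrocyte fraction and place 3 in the input, and Jag1 holds place 7 and place 10.

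Genes most like Nrarp and Dll1, which had the highest and the lowest fold change of the 10, were sought by the distance between log2 CPM profiles over the 10 libraries, each centred on its mean. Nearest to Nrarp were the urea transporter gene Slc14a1 (distance 0.35, log2 fold change 3.28), the potassium channel subunit gene Kcne1l (0.35 and 3.47) and Papss2 (0.37 and 3.36), which encodes an enzyme of sulfate activation. Among the nearest to Dll1 were the cadherin gene Cdh8 (distance 0.80, log2 fold change -2.32) and the progesterone receptor gene Pgr (0.80 and -1.89). The difference between the groups makes up most of each profile, so the likeness describes fold changes more than variation between libraries.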

How the data were processed

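The authors deposited 1 table of 18464 genes, whose estimated counts per library are raw, per the file headers. It also holds log2 values that the authors normalized, centred per gene, by a scaling that the file headers do not describe. CASAVA 1.8, DESeq and the build mm10 are listed, with no role, per the submitters' processing notes. Aligner, counting tool and strand setting were not given in the sources used here. The rounded counts were tested by edgeR 4.0.16 (R 4.3.3), using its robust quasi-likelihood test after TMM scaling and filterByExpr (minimum count 10), with fold changes at a prior count of 2 and p adjusted over 17672 genes. The filter removed 792 genes. Each SE is that of the difference between group means of log2 CPM. Exon lengths and overlaps come from GENCODE M21 (the same build; coordinates of 9 of the 10 genes are identical). The fit was also run on simulated counts in which few genes changed, equally up and down. That run does not test the scaling where most genes differ. DESeq2 1.42.0 and limma 3.58.1 on the authors' log2 values were alternatives.

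Libraries with the same title number deviated together after removal of group means (correlation 0.189 to 0.493, different numbers -0.08 on average), so the numbers pair the samples from the data, and the block is given where it changed a call. The 10 genes, the pathway and marker lists and the tests were chosen with earlier results of these data known. From the pathway list the text names all ligands, receptors and targets and, by role, up to 3 called genes of the role's commoner direction, ranked by adjusted p, and 1 of the other direction. Adam10, Psen2, Ncstn, Rfng, Maml3 and Numb were named after their values were seen and were not followed through the alternative fits. Values as small as theirs can depend on the scaling, since total counts moved the median of all tested genes from -0.06 to -0.34. Neighbours in expression pattern were sought among genes of at least 5 CPM. A gene among those nearest to Dll1 is not reported here. Counting error alone allows 3 counts where 0 are seen, at most 0.880 CPM (astrocyte fraction 92).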

Additional observations from a re-analysis of the deposited data

Results flagged for a closer look

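In 98 groups of 5 libraries checked for a single library far from the others, 3 had 1, and chance alone gives about 1 in 20 groups. Dll1 was at 3.81 CPM in the astrocyte fraction library 92, the shallowest library, against 0.904 to 1.36 CPM in the other 4. Notch1 was at 32.6 CPM in the input 92, against 19.2 to 22.0 CPM in the other inputs. Pofut1 was at 34.1 CPM in the input 981.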

How the results depend on the processing

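Of 189 values of the 10 genes under 19 alternative fits, 187 kept their direction and side of the threshold. The exceptions were both Rbpj, at -0.012 with total counts and 0.19 when a mean of 5 CPM was required. That filter removed Dll1, which left 1 of the 10 genes lower. Total count scaling gave 7 higher and 2 lower of the 10. Called genes were 46.9% higher with TMM and 34.0% with total counts. The title number as a replicate block left 8 higher and 2 lower, as did leaving out the numbers 976 and 982 or the number 92. Among the 10 genes and the 32 pathway genes named by rule, the block changed the Dner call alone. Exact sign flips over the 5 numbers (replicate block) cannot go below p = 0.0625, and exact permutations of 3 against 3 libraries without the numbers 976 and 982 not below 0.100, so neither could be called. The differences were -4.13 and -4.09 for Dll1 to Jag1, -3.84 and -4.28 for Jag2 to Jag1, 0.97 and 0.95 for Hes5 to Hes1, and -4.15 and -4.08 for Dll1 to Notch1, in this order, and 0.018 for Jag1 to Notch1 without 976 and 982. Leaving out each library gave 0.86 to 1.12 for Hes5 to Hes1. Some values that were not called crossed 0, at -0.10 to 0.17 for Notch1 to Notch2, -0.00091 to 0.17 for Notch3 to Notch2, -0.12 to 0.049 for Jag1 to Notch1 and -0.27 to 0.14 for Dll4, and the cause was not tested. With total count scaling Tle4 was at 0.53 and Mib2 at -0.58. Depth limits genes near the floor of the shallow astrocyte fraction library 92.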
